A study of Mus musculus with 8 samples.

Results

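The eIF4F partners and eIF4A regulators are the mRNAs of 10 proteins that act with the helicase eIF4A in translation initiation. They were taken as the rows of the count table whose gene identifiers carry the mouse symbols *Eif4e*, *Eif4e2*, *Eif4g1*, *Eif4g3*, *Eif4g2*, *Eif4b*, *Eif4h*, *Pdcd4*, *Eif4ebp1*, and *Eif4ebp2*. All 10 were found among 52550 genes, and all 10 were among the 10754 genes that reached 1 CPM (counts scaled to a fixed total of reads on genes) in each of the 4 input libraries and were therefore tested.

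The cap-binding protein eIF4E, the scaffold eIF4G, and the helicase eIF4A form eIF4F, which binds the 5′ cap of an mRNA, unwinds the leader, and recruits the small ribosomal subunit. eIF4B and eIF4H stimulate the helicase. PDCD4 binds eIF4A and blocks it, and the 4E-BPs occupy the site on eIF4E that eIF4G would use until mTORC1 phosphorylates them, which makes the complex a meeting point of growth signals and protein synthesis.

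In RIP-seq, RNA that comes down with an immunoprecipitated protein is sequenced next to the RNA of the lysate, and here the question was which transcripts of mouse embryonic stem cells (ESCs) come down with eIF4A2. All 4 groups were *Eif4a2* KO ESCs kept in ES-DMEM with 2i (1.5 µM CHIR99021 and 0.5 µM PD0325901) and 10 ng/ml LIF, which holds them in the naïve state. The EV groups (input EV and RIP EV) carried the empty vector and had no Flag-tagged protein, whereas the eIF4A2FL groups (input eIF4A2FL and RIP eIF4A2FL) re-expressed full-length Flag-eIF4A2 from a piggyBac-delivered CAG promoter. Each group had 2 libraries, and the immunoprecipitations ran for 3 h with 5 µg of the anti-Flag M2 antibody. The eIF4A2FL replicates were 2 clones per the study's legends. The origin of the EV replicates was not given in the sources used here, and the p-values describe the variation among these libraries alone, be it technical or biological. One label field of RIP eIF4A2FL replicate 2 names *Eif4a3*, whereas its other fields name *Eif4a2*.

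The libraries hold tags from the 3′ ends of polyadenylated RNA (QuantSeq), about 1 tag per transcript whatever its length, so CPM was not divided by length. Reads counted on genes ranged from 2044853 to 11206420 per library. The RIP EV libraries stood apart from all others, with a biological coefficient of variation of 171% against 23.1% to 30.1% in the other groups, and with 7016 and 9473 genes detected against 15587 to 18530. In a fit of all 8 libraries this spread is shared with every comparison, including those that do not use RIP EV. Values that moved or changed their call without one of these libraries are given with the change. Such a fit leaves 1 RIP EV library, whose spread is then assumed to be like that of the other groups. Calls that use RIP EV in such fits therefore omit the spread between its 2 libraries. Of 7 naïve ESC genes, 6 (*Esrrb*, *Klf4*, *Nanog*, *Sox2*, *Tfcp2l1*, and *Zfp42*) lay between 65.5 and 979 CPM in the inputs and *Pou5f1* between 5.78 and 19.7 CPM. Of 4 formative or primed genes, *Dnmt3b* lay between 76.0 and 150.1 CPM in the inputs, *Otx2* between 15.5 and 54.1, *Pou3f1* between 4.54 and 9.80, and *Fgf5* at or under 0.312. Of 4 fibroblast genes, *Thy1* reached 5.93 CPM, *Col1a1* 1.40, and *Col1a2* 0.978 in some library, and *Col3a1* had no tag. The 4 endoderm genes *Gata4*, *Gata6*, *Sox7*, and *Sox17* reached at most 0.803 CPM. No other annotated gene overlapped the 3′ end of a member.

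Members that meet eIF4E through the same short peptide carry its codons in their coding sequences. A narrow form of the eIF4E-binding motif was searched in frame on the coding strand. It was a tyrosine codon followed by codons for aspartate, arginine, lysine or glutamate, phenylalanine, leucine, and leucine or methionine. It is shown because it is the one piece of sequence that eIF4G and the 4E-BPs share. In the lines below the 7 motif codons are in capitals, the flanks are in lower case, and each is given 5′ to 3′ on the gene's own strand.
Eif4g1: cgtTATGACAGAGAATTCCTGCTGggcttt
Eif4g3: cagTATGACCGGGAGTTCCTACTGgacatc
Eif4ebp1: atcTATGACCGGAAATTTCTGATGgagtgt
Eif4ebp2: attTATGACCGAAAGTTTCTGTTGgaccgt

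The windows lie within coding exons of GRCm38, at chr16:20681218-20681247 (plus strand) in *Eif4g1*, chr4:138156647-138156676 (plus strand) in *Eif4g3*, chr8:27273334-27273363 (plus strand) in *Eif4ebp1*, and chr10:61435063-61435092 (minus strand) in *Eif4ebp2*. Of 10086 tested genes with an annotated coding sequence, these 4 (0.0397%) held this form. It allows only residues found in these 4 sequences, so a match in them was set in advance. The count does not cover other eIF4E-binding proteins. The letters were not in the coding sequence of *Eif4g2*, a scaffold relative that works without eIF4E, nor in those of *Eif4e*, *Eif4e2*, *Eif4b*, *Eif4h*, and *Pdcd4*. Over the 30 bases shown, the 4E-BP genes differed at 6 positions and *Eif4g1* and *Eif4g3* at 9, whereas a scaffold and a 4E-BP gene differed at 10 to 12.

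In the inputs the members spanned a wide range of tag levels. *Eif4g2* was highest, with 416 ± 57.4 CPM (SD, n = 4 inputs), followed by *Eif4b* with 290 ± 83.5 CPM, *Eif4e2* with 243 ± 15.9 CPM, and *Eif4g1* with 222 ± 83.7 CPM. *Eif4e* (177 ± 12.7 CPM), *Eif4ebp1* (161 ± 45.5 CPM), *Eif4ebp2* (160 ± 16.8 CPM), and *Eif4h* (150 ± 22.0 CPM) came next and lay close together. *Eif4g3* had 31.2 ± 18.3 CPM and *Pdcd4* 14.02 ± 5.01 CPM. The ranges over the 4 inputs overlapped between all neighbours in this order except *Eif4h* and *Eif4g3*, so only the step down to the last 2 members was larger than the spread. *Eif4e2* had 1.25 to 1.54 tags per *Eif4e* tag in the inputs.

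After immunoprecipitation of Flag-eIF4A2FL the order was different. *Eif4g1* was first with 1369 ± 563 CPM (SD, n = 2), ahead of *Eif4g2* with 432 ± 106 CPM and *Eif4ebp1* with 308 ± 18.2 CPM. *Eif4e* was ninth with 87.7 ± 9.29 CPM, and *Pdcd4* was last with 28.7 ± 1.25 CPM. The 10 members together made up 3048 and 3367 CPM of the RIP eIF4A2FL libraries, 1697 to 1987 CPM of the inputs, and 1090 and 1802 CPM of the RIP EV libraries.

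**Figure D1:**
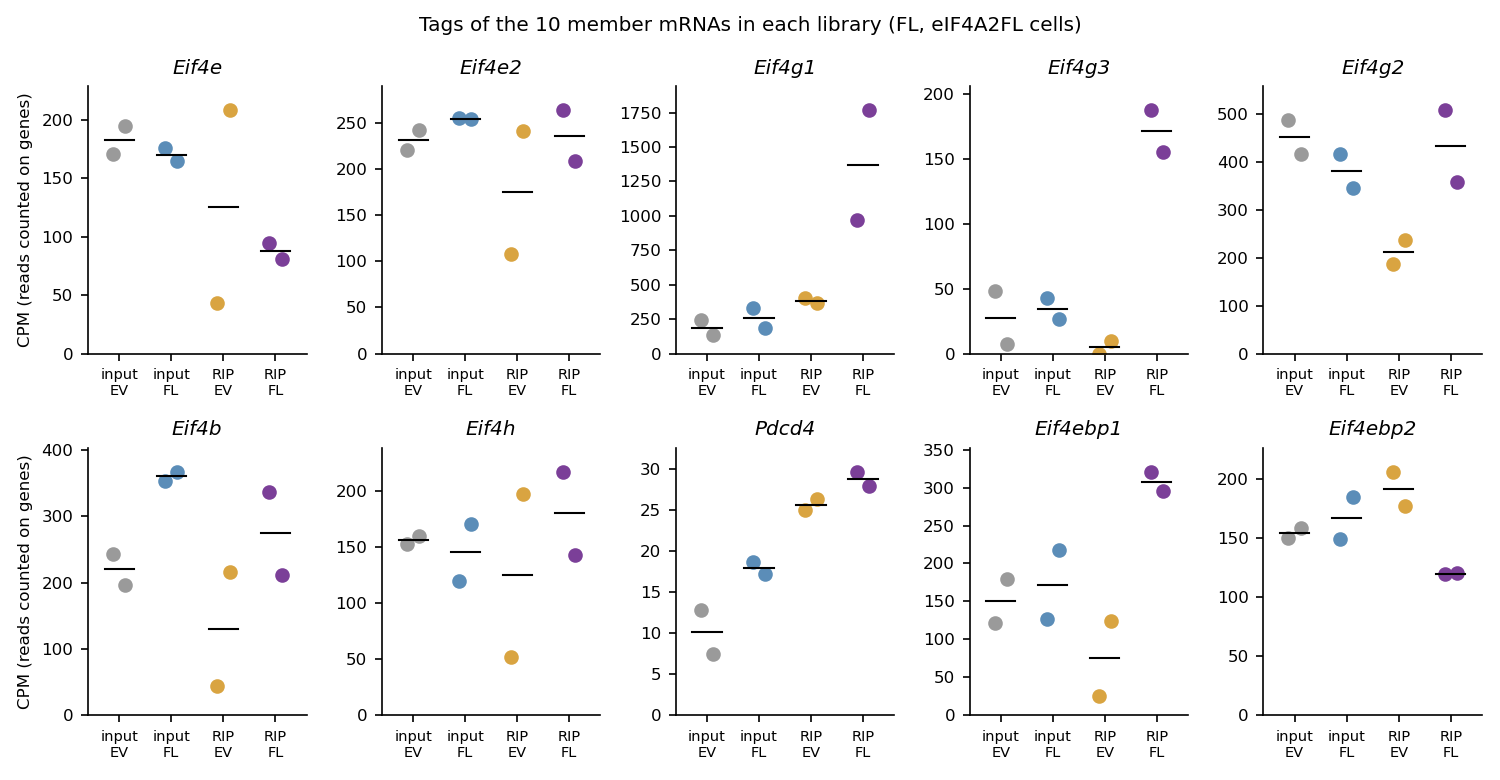
CPM on reads counted on genes (y axis, linear, starting at 0 in each panel) of the 10 member mRNAs in each library, with FL for eIF4A2FL. Points are single libraries, 2 per group, and black lines are group means. *Eif4g1*, *Eif4g3*, *Eif4ebp1*, and, narrowly on this scale, *Pdcd4* stand above all other groups in RIP eIF4A2FL, and *Eif4ebp2* lies below them. The RIP EV libraries lie far apart for *Eif4e*, *Eif4b*, *Eif4h*, and *Eif4ebp1*.

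RIP eIF4A2FL was compared with its own input to ask which member mRNAs were recovered beyond their share of cellular RNA, and with RIP EV to ask which exceeded the background of the antibody and beads. The scaffold mRNAs *Eif4g1* and *Eif4g3* had the highest log2 fold changes of the members against input (2.11 and 1.99), *Eif4e* and *Eif4ebp2* the lowest (−1.26 and −0.78), and the others lay in between. Both RIP eIF4A2FL libraries were above both inputs for 4 members (45.8% of all genes) and below them for 3 (18.7%), and with TMM-scaled totals for 4 (31.7%) and 4 (29.9%), with *Eif4e2* added below. They were above both RIP EV libraries for 5 members (51.9% of all genes) and below them for 1 (12.1%), and with TMM-scaled totals for 4 (46.7%) and 2 (14.9%), with *Pdcd4* moving from above to below. With edgeR's quasi-likelihood test on all 8 libraries and Benjamini-Hochberg adjustment over all tested genes, no member passed 0.05 against input, where the share of all genes called was 0% higher and 0.0558% lower. Before adjustment, 1 member was higher and 1 was lower at 0.05, against 3.08% and 5.88% of all genes. DESeq2 on the same 8 libraries called 1 member higher (*Eif4g1*) and 1 lower (*Eif4ebp2*), against 2.55% and 4% of all genes. When edgeR was fitted to the 4 eIF4A2FL libraries alone, *Eif4g1* and *Eif4g3* rose and *Eif4e* fell, against 8.44% and 8.46% of all genes. Against RIP EV, 0 members were called higher and 1 lower (*Eif4ebp2*), where 24.8% of all genes were called higher and 5.46% lower. Before adjustment, 4 members were higher and 1 was lower at 0.05, against 29.8% and 9.48% of all genes. The median log2 fold change of all genes was 0.02 against input and 0.64 against RIP EV, and that of the members was −0.06 and 0.51. With library size alone in place of TMM scaling, the medians of all genes were 0.32 and 0.91, and each member's value is relative to that shift. Without RIP EV replicate 1, 3 members were called higher against RIP EV (41.5% of all genes), and without replicate 2, 7 (58.1%). Both comparisons share the RIP eIF4A2FL libraries.

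**Figure D2:**
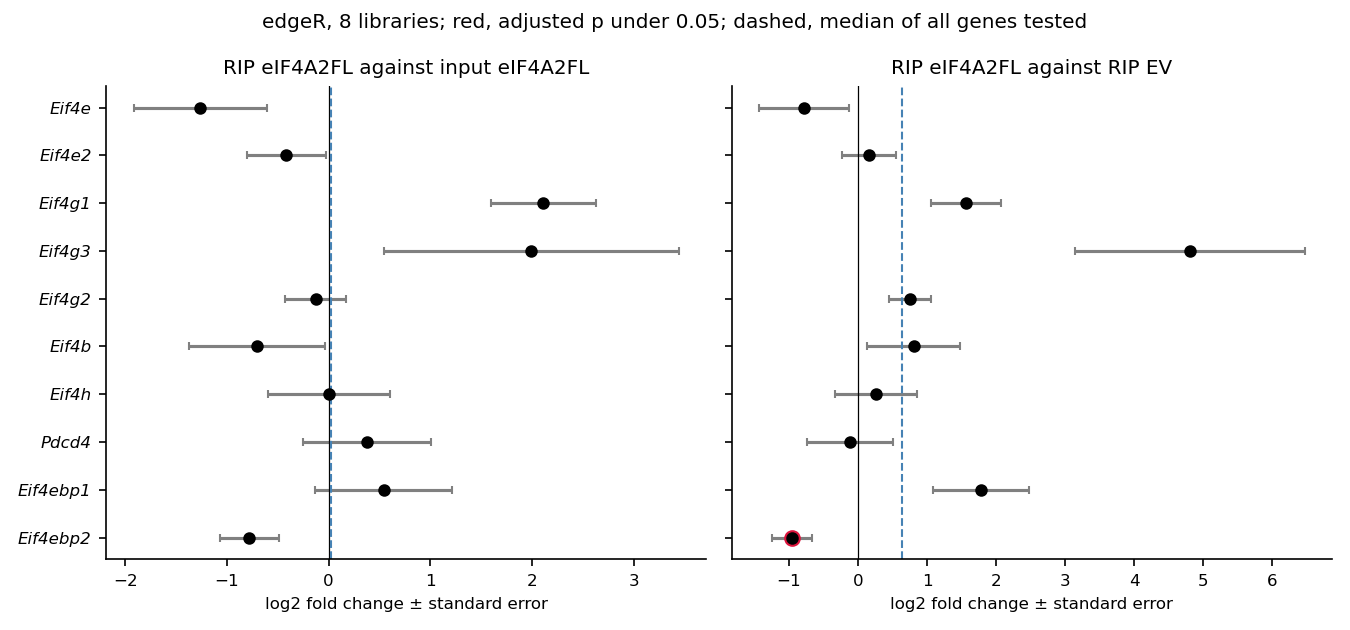
Log2 fold changes of the 10 member mRNAs in RIP eIF4A2FL against input eIF4A2FL (left) and against RIP EV (right), from edgeR on all 8 libraries. Points are estimates, and bars are ± 1 standard error, derived from the F statistic of the test. The dashed line is the median of all tested genes, and the red point (*Eif4ebp2* against RIP EV) has an adjusted p under 0.05.

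*Eif4e* encodes the major cap-binding protein and lies on chromosome 3 (138526179 to 138559696, plus strand). It was at 171 and 194 CPM for input EV, 176 and 165 for input eIF4A2FL, 43.0 and 208 for RIP EV, and 94.2 and 81.1 for RIP eIF4A2FL. Both RIP eIF4A2FL libraries were below all 4 inputs, and they lay between the 2 RIP EV libraries. Against input the log2 fold change was −1.26 (± 0.654 SE, edgeR adjusted p = 0.697). The same value was −1.27 in the edgeR fit of the 4 libraries compared, with an adjusted p of 0.0135, and limma voom with a quality weight per group gave an adjusted p of 0.00688. Without RIP EV replicate 1 or 2 in the edgeR fit the adjusted p was 0.0110 or 0.0127. Relative to RIP EV, *Eif4e* had −0.78 (± 0.649 SE, edgeR adjusted p = 0.442), and it was −1.497 without RIP EV replicate 1 and 0.83 without replicate 2.

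*Eif4e2*, on chromosome 1 (87213914 to 87240488, plus strand), encodes the cap-binding homolog 4EHP, which represses the mRNAs it binds. It was at 221 and 242 CPM for input EV, 256 and 255 for input eIF4A2FL, 109 and 242 for RIP EV, and 264 and 209 for RIP eIF4A2FL. The RIP eIF4A2FL libraries overlapped the inputs and RIP EV, although with TMM-scaled totals both were below their own input. The log2 fold change was −0.41 against input (± 0.389 SE, edgeR adjusted p = 0.966) and 0.16 against RIP EV (± 0.390 SE, adjusted p = 0.818). The latter was −0.28 without RIP EV replicate 1 and 0.93 without replicate 2.

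*Eif4g1* encodes the main scaffold of eIF4F, which holds eIF4E, eIF4A, eIF3, and the poly(A)-binding protein, and lies on chromosome 16 (20668313 to 20692884, plus strand). It was at 242 and 134 CPM for input EV, 329 and 184 for input eIF4A2FL, 401 and 367 for RIP EV, and 971 and 1767 for RIP eIF4A2FL. Both RIP eIF4A2FL libraries were above the other 6, and the RIP EV libraries were in turn above all inputs. Against input the log2 fold change was 2.11 (± 0.513 SE, edgeR adjusted p = 0.273, unadjusted p = 0.00519), which placed *Eif4g1* at rank 83 of the 10754 tested genes. The estimate stayed between 1.63 and 2.62 under the 17 alternatives, and it passed 0.05 under 7 of them. These were DESeq2 on 8 libraries (adjusted p = 0.0119), DESeq2 on the 4 libraries (adjusted p = 8.12e-06), edgeR on the 4 libraries (adjusted p = 0.0109), limma voom with group weights (adjusted p = 0.00281), edgeR with no filter on low counts (adjusted p = 0.0114), and edgeR without RIP EV replicate 1 (adjusted p = 0.00840) or 2 (adjusted p = 0.00674). Each of the 2 RIP eIF4A2FL libraries taken alone gave 1.63 or 2.54, so the 2 clones differed in the size and not in the sign.

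Against RIP EV, *Eif4g1* had a log2 fold change of 1.56 (± 0.504 SE, edgeR adjusted p = 0.0600), on the edge of the threshold. It was 1.66 without RIP EV replicate 1 and 1.59 without replicate 2, and 1.84 with library size alone (adjusted p = 0.0260). RIP EV against input EV was 1.00 for *Eif4g1* (± 0.499 SE, adjusted p = 0.195), and both RIP EV libraries were above both EV inputs on the CPM scale. The RIP to input log2 ratio was higher by 1.11 in eIF4A2FL than in EV cells (± 0.700 SE, adjusted p = 0.378).

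*Eif4g3* encodes the second eIF4G scaffold and lies on chromosome 4 (137993022 to 138208508, plus strand). It was at 48.0 and 7.49 CPM for input EV, 43.1 and 26.3 for input eIF4A2FL, 0 and 9.87 for RIP EV, and 188 and 156 for RIP eIF4A2FL. The lowest RIP eIF4A2FL library was above the highest of the other 6. Against input the log2 fold change was 1.99 (± 1.45 SE, edgeR adjusted p = 0.884), at rank 118 of the tested genes and next to *Eif4g1* in size. With the 4 libraries compared alone, edgeR gave an adjusted p of 0.00606, and edgeR on all libraries without RIP EV replicate 1 or 2 gave adjusted p-values of 0.0386 and 0.0323. Against RIP EV the fitted log2 fold change of 4.81 (± 1.66 SE, edgeR adjusted p = 0.0741) rested on 0 and 33 RIP EV tags. It was 3.87 without RIP EV replicate 1, and without replicate 2 the remaining library held 0 tags. Over the pooled libraries RIP eIF4A2FL held 3654 tags and RIP EV 33, a ratio of 28.2 per gene read with an exact 95% counting interval of 20.03 to 41.0, which covers counting error only.

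*Eif4g2* (chromosome 7, 111067750 to 111083030, minus strand) encodes the relative DAP5, which binds eIF4A and eIF3 but not eIF4E. It was at 486 and 417 CPM for input EV, 416 and 345 for input eIF4A2FL, 186 and 236 for RIP EV, and 507 and 357 for RIP eIF4A2FL. RIP eIF4A2FL overlapped its input and was above RIP EV in both libraries. The log2 fold change was −0.13 against input (± 0.296 SE, edgeR adjusted p = 1.00), with 0.18 under library size alone. Against RIP EV it was 0.75 (± 0.298 SE, adjusted p = 0.111). The latter was 1.03 under library size alone (adjusted p = 0.0399) and 1.02 without RIP EV replicate 2. *Eif4g2* was the one member called in the background comparison. There RIP EV fell by 1.12 on the log2 scale against input EV (± 0.301 SE, edgeR adjusted p = 0.0309). In that comparison 26.3% of all genes were called lower and 4.5% higher, and *Eif4g2* was the single member among them in either direction. Leaving out input EV replicate 1 or 2 gave adjusted p-values of 0.153 and 0.0615, and leaving out input eIF4A2FL replicate 1 or 2 gave 0.0526 and 0.0519. Among the scaffold mRNAs, *Eif4g1* and *Eif4g3* therefore lay above their own input in RIP eIF4A2FL, whereas *Eif4g2* overlapped it.

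Both cofactor mRNAs were recovered near or under their input level. *Eif4b*, on chromosome 15 (102073773 to 102097173, plus strand), encodes the RNA-binding stimulator of eIF4A, and it was at 244 and 197 CPM for input EV, 354 and 368 for input eIF4A2FL, 44.0 and 216 for RIP EV, and 337 and 211 for RIP eIF4A2FL. *Eif4h*, on chromosome 5 (134619721 to 134639490, minus strand), encodes a smaller cofactor of similar activity, and it was at 152 and 160 CPM for input EV, 119 and 170 for input eIF4A2FL, 51.8 and 197 for RIP EV, and 217 and 143 for RIP eIF4A2FL. *Eif4b* in RIP eIF4A2FL was below its own input in both libraries, and *Eif4h* overlapped it. Relative to input, *Eif4b* had a log2 fold change of −0.70 (± 0.666 SE, edgeR adjusted p = 0.966) and *Eif4h* one of 0.01 (± 0.598 SE, adjusted p = 1.00). Against RIP EV they were 0.81 (± 0.669 SE, adjusted p = 0.442) and 0.26 (± 0.599 SE, adjusted p = 0.808), with each RIP eIF4A2FL range overlapping that of RIP EV. Without RIP EV replicate 1 these values were 0.090 for *Eif4b* and −0.39 for *Eif4h*, and without replicate 2 they were 2.44 and 1.60.

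*Pdcd4* (chromosome 19, 53892231 to 53929860, plus strand) encodes the inhibitor that binds eIF4A itself, and by group means it was the lowest member in the inputs and in RIP eIF4A2FL, though not in RIP EV, where *Eif4g3* was lower. It was at 12.8 and 7.49 CPM for input EV, 18.6 and 17.2 for input eIF4A2FL, 24.9 and 26.3 for RIP EV, and 29.6 and 27.9 for RIP eIF4A2FL. All 4 RIP libraries were above all 4 inputs, and the RIP eIF4A2FL libraries exceeded the RIP EV libraries narrowly. That order held for CPM on gene reads and turned with TMM-scaled totals, where RIP eIF4A2FL had 25.03 and 24.4 CPM and RIP EV 26.6 and 26.9 CPM. The log2 fold change was 0.38 against input (± 0.629 SE, edgeR adjusted p = 1.00) and −0.11 against RIP EV (± 0.629 SE, adjusted p = 0.924), with 0.17 under library size alone. RIP EV against input EV was 1.30 (± 0.642 SE, adjusted p = 0.191), the largest of the members in that comparison.

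The mRNAs of the 2 4E-BPs, which share the motif and function, lay on opposite sides of their inputs. *Eif4ebp1*, on chromosome 8 (27260329 to 27276674, plus strand), was at 121 and 180 CPM for input EV, 127 and 217 for input eIF4A2FL, 25.4 and 124 for RIP EV, and 321 and 295 for RIP eIF4A2FL. *Eif4ebp2*, on chromosome 10 (61428491 to 61452661, minus strand), was at 150 and 158 CPM for input EV, 149 and 185 for input eIF4A2FL, 206 and 177 for RIP EV, and 119 and 120 for RIP eIF4A2FL. RIP eIF4A2FL was therefore the highest group for *Eif4ebp1* and the lowest for *Eif4ebp2*, with no overlap with any other library in either case. Of all genes, 45.8% lay above both of their own inputs without overlap and 18.7% below. For RIP EV these shares were 51.9% and 12.1%. The share of genes apart from all other libraries at once was not counted.

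For *Eif4ebp1* the log2 fold change was 0.54 against input (± 0.675 SE, edgeR adjusted p = 1.00) and 1.78 against RIP EV (± 0.695 SE, adjusted p = 0.106). The latter was 1.07 without RIP EV replicate 1 and 3.405 without replicate 2. For *Eif4ebp2* it was −0.78 against input (± 0.288 SE, edgeR adjusted p = 0.496, unadjusted p = 0.0322), and DESeq2 on 8 libraries gave an adjusted p of 0.00795. Against RIP EV *Eif4ebp2* fell by 0.96 on the log2 scale (± 0.289 SE, edgeR adjusted p = 0.0472), the single member called there. Leaving out any one input or RIP eIF4A2FL library ended this call (adjusted p between 0.0807 and 0.290), and it passed under 4 of 17 alternatives with estimates between −0.97 and −0.68. The difference between the cell lines was −1.08 for *Eif4ebp2* (± 0.406 SE, adjusted p = 0.123) and 1.57 for *Eif4ebp1* (± 0.959 SE, adjusted p = 0.363). For *Eif4ebp1* it was 0.85 without RIP EV replicate 1 and 3.18 without replicate 2.

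Whether the members stood apart from each other was also read inside single libraries, as tags of one mRNA per tag of another, which needs no scaling between libraries. *Eif4g1* had 10.3 and 21.8 tags per *Eif4e* tag in RIP eIF4A2FL, 0.689 to 1.87 in the 4 inputs, and 9.31 and 1.76 in RIP EV. The lowest RIP eIF4A2FL ratio was 5.50 times the highest input ratio, yet RIP EV replicate 1, with 88 *Eif4e* tags, came near it (exact binomial 95% interval 7.46 to 11.7). *Eif4ebp1* had 2.69 and 2.46 tags per *Eif4ebp2* tag in RIP eIF4A2FL, 0.809 to 1.17 in the inputs, and 0.124 and 0.699 in RIP EV, so this ratio set RIP eIF4A2FL above and RIP EV below all inputs.

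Other ratios to *Eif4e* were also higher in RIP eIF4A2FL than in every input. *Eif4g3* had 1.99 and 1.92 tags per *Eif4e* tag against 0.0385 to 0.281 in the inputs, *Eif4ebp1* 3.41 and 3.64 against 0.710 to 1.32, *Eif4g2* 5.38 and 4.40 against 2.09 to 2.84, and *Eif4e2* 2.58 to 2.80 against 1.25 to 1.54. Of the 14 ratios computed, 12 were above all 4 inputs in both RIP eIF4A2FL libraries and 2 overlapped them. With RIP EV included, 9 were above all other libraries and 5 overlapped them. The ratios are not independent, since 9 of the 14 have *Eif4e* as their denominator, itself at its lowest group mean in RIP eIF4A2FL. Against input the edgeR log2 fold change of *Eif4e* (−1.26) lay at percentile 7.25 of all tested genes. Most tested genes therefore had a higher value than *Eif4e*, and a rise per *Eif4e* tag is not particular to the members. The 14 pairs are a selection of the possible pairs, and the share of all gene pairs above the inputs was not counted. With 2 libraries in a group an exact permutation test cannot give a two-sided p under 0.333, so these ratios are descriptions.

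**Figure D3:**
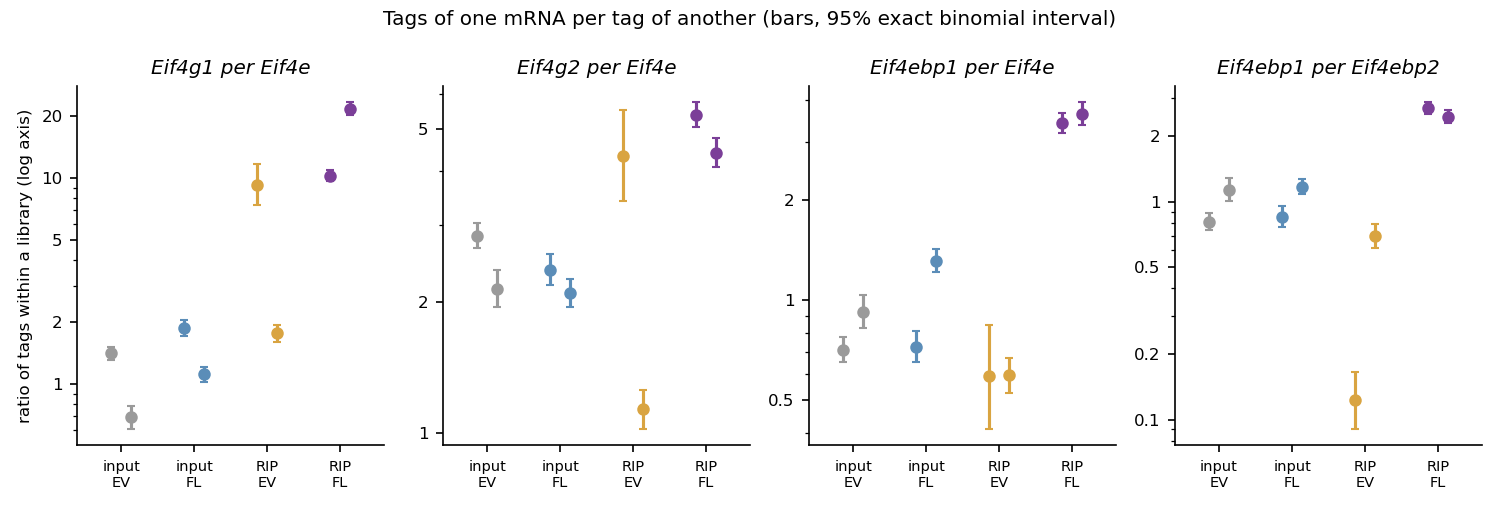
Ratios of tags of 2 member mRNAs within a library (y axes, logarithmic) for *Eif4g1* per *Eif4e*, *Eif4g2* per *Eif4e*, *Eif4ebp1* per *Eif4e*, and *Eif4ebp1* per *Eif4ebp2*. Points are libraries and bars are exact binomial 95% intervals of counting error. In all 4 panels both RIP eIF4A2FL libraries (FL) lie above the 4 inputs, and RIP EV replicate 1 comes close to them for *Eif4g1* and *Eif4g2* per *Eif4e*.

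The calls against input varied between fits more than the estimates did. No member passed in edgeR fits of all 8 libraries with TMM, library size, or DESeq2 scaling, nor in those that left out an input or RIP eIF4A2FL library, except *Eif4g1* in the TMM fit with no filter on low counts. *Eif4g1* and *Eif4g3* were called higher and *Eif4e* lower in each of the 5 fits in which 1 RIP EV library was left out, both were left out (edgeR and DESeq2 on 4 libraries), or the groups had their own weights. The shares of all genes called higher and lower were 7.25% and 7.86% without RIP EV replicate 1, 8.07% and 7.23% without replicate 2, 9.27% and 10.2% in DESeq2 on 4 libraries, and 8.9% and 9.65% in limma voom, against 0% and 0.0279% with library size alone. *Eif4ebp2* was called lower in 3 fits (DESeq2 on 8 libraries, DESeq2 on 4, and limma voom). *Eif4e2*, *Eif4g2*, *Eif4b*, *Eif4h*, *Pdcd4*, and *Eif4ebp1* passed in none of the 17 alternatives, where the lowest adjusted p was 0.0878, for *Eif4b*.

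Against RIP EV the calls varied in another way. DESeq2 on 8 libraries called *Eif4g1*, *Eif4g3*, and *Eif4g2* higher and *Eif4ebp2* lower, where 30.4% and 10.5% of all genes were called. DESeq2 on the 4 RIP libraries called *Eif4g1* and *Eif4g3* higher (7.49% of all genes) and no member lower (4.86%). Library size alone called *Eif4g1* and *Eif4g2* higher (26.6%) and none lower (4.01%), whereas limma voom called no member in either direction (0% and 0.0837%). With no filter on low counts edgeR called *Eif4g1*, *Eif4g3*, and *Eif4ebp1* higher (16.8%) and none lower (5.13%). Fits without a RIP EV replicate rest on 1 RIP EV library, so log2 fold changes are given for them. *Eif4e* was −1.497 without replicate 1 and 0.83 without replicate 2. With any 1 library left out, *Eif4g1* ran from 1.16 to 2.06, *Eif4ebp1* from 1.07 to 3.405, and *Eif4ebp2* from −0.97 to −0.81. *Pdcd4* was called in none of the 17 alternatives.

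**Figure D4:**
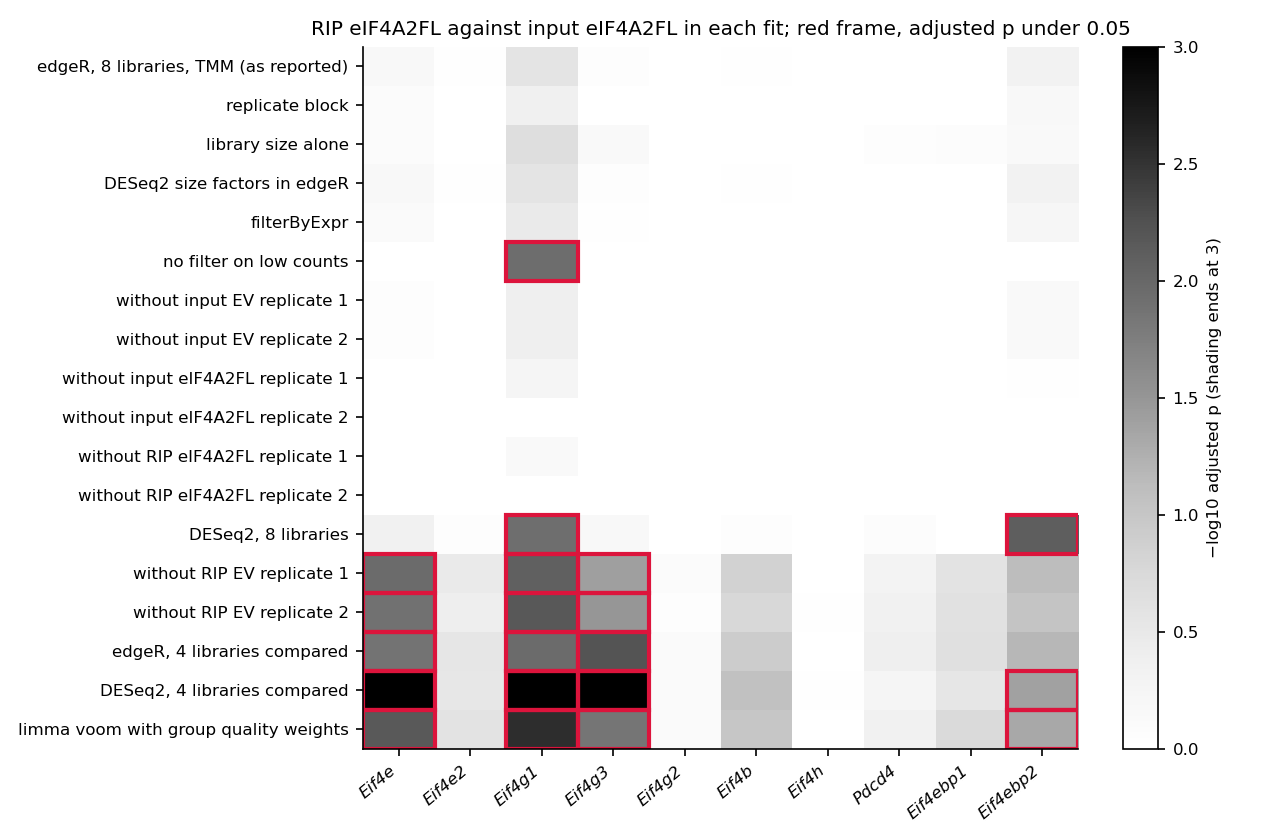
Adjusted p of the 10 member mRNAs (columns) in RIP eIF4A2FL against input eIF4A2FL under each fit (rows), shaded by −log10 and framed in red under 0.05. Frames are confined to *Eif4e*, *Eif4g1*, *Eif4g3*, and *Eif4ebp2*, and most lie in the 5 lowest rows, the fits that drop a RIP EV library or both, or weight the groups separately.

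Genes with longer coding sequences tended to have higher log2 fold changes of RIP eIF4A2FL over its input. Across 10087 tested protein-coding genes Spearman's rho was 0.49, as a description across genes that are not independent replicates. When these genes were split by coding length into 5 classes of like size, the class medians were −0.30, −0.24, −0.06, 0.26, and 0.80 on the log2 scale, from shortest to longest. *Eif4g3* with 5286 coding nucleotides, *Eif4g1* with 4800, and *Eif4g2* with 2718 were in the longest class (2520 to 23151 nucleotides). *Eif4g1* and *Eif4g3* lay above the median of that class and *Eif4g2* below it. *Eif4g2* is near the short end of this wide class, whose median is therefore not one of genes of its own length. *Eif4g2* also lay below the median of the next shorter class (0.26). *Eif4ebp1* with 351 and *Eif4ebp2* with 360 coding nucleotides were in the shortest class, on either side of its median, and *Eif4e* with 651 lay below it. Over the 10 members rho was 0.479, with all points from the same 4 libraries. The part of length in the members' values was not tested.

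**Figure D5:**
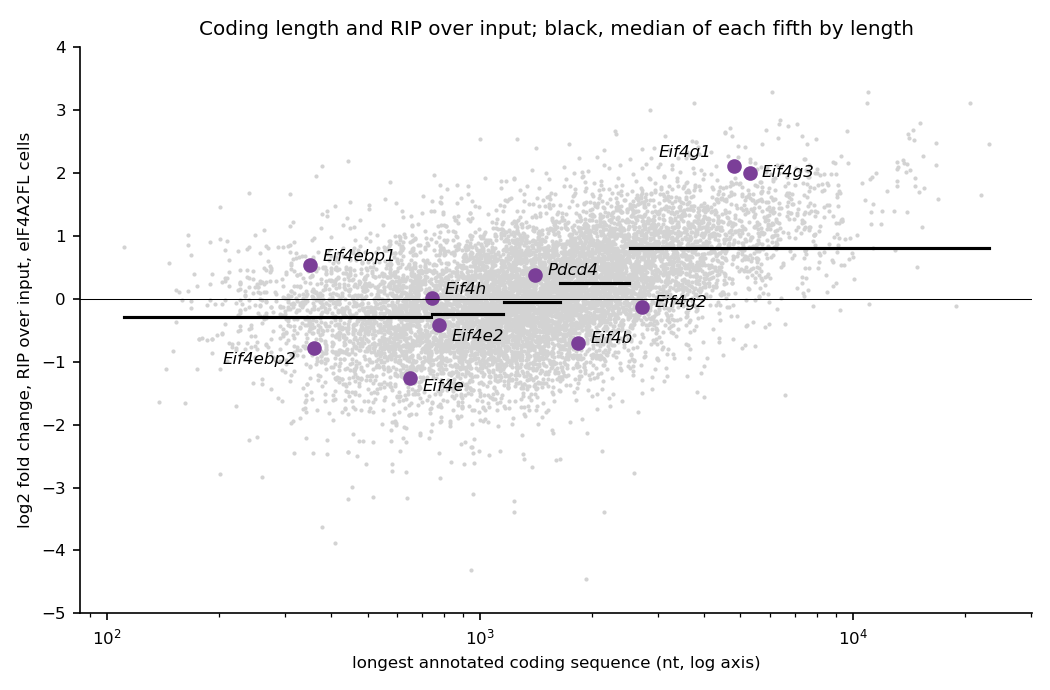
Log2 fold change of RIP eIF4A2FL against input eIF4A2FL (y axis) by the longest annotated coding sequence (x axis, nucleotides, logarithmic) for 10087 tested protein-coding genes in grey and the 10 members in purple. Black lines are the medians of the 5 length classes, which climb from −0.30 to 0.80, and 10 genes lie outside the y axis.

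The EV cells gave the background without tagged protein. Besides *Eif4g2*, the RIP EV levels of *Eif4ebp2*, *Pdcd4*, and *Eif4g1* did not overlap those of input EV, all 3 being above it, against 14.6% of all genes above and 44.9% below. With TMM-scaled totals *Eif4ebp1* was below input EV as well (14.5% and 45.5%). None of these 3 passed the test, with log2 fold changes of 0.31, 1.30, and 1.00 (adjusted p = 0.505, 0.191, and 0.195 from edgeR). *Eif4e*, *Eif4e2*, *Eif4b*, *Eif4h*, and *Eif4ebp1* had log2 fold changes between −1.02 and −0.35, and *Eif4g3* had −2.53, none of them past the threshold. On the CPM scale of gene reads, RIP EV replicate 1 was below both EV inputs for these 6 mRNAs and replicate 2 was not, and without replicate 2 each was called lower. *Pdcd4* was called higher when either RIP EV library was left out (17.7% of all genes without replicate 1 and 16.6% without replicate 2, with 42.3% and 60.3% lower) and in DESeq2 on 8 libraries, where 10% of all genes were higher and 32% lower. Before adjustment *Eif4g2* alone was past 0.05 in edgeR's fit, against 8.41% of all genes higher and 31.3% lower. The members' median was −0.49 and that of all genes −0.64.

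No member was called when the ratio of RIP to input was compared between eIF4A2FL and EV cells, where 19.2% of all genes were called higher in eIF4A2FL cells and 2.1% lower. Before adjustment, 0 members were higher and *Eif4ebp2* alone was lower at 0.05, against 25.3% and 5.04% of all genes. DESeq2 on 8 libraries called *Eif4ebp2* lower (log2 difference −1.09, adjusted p = 0.00212), and so did edgeR without RIP EV replicate 2 (−1.11, adjusted p = 0.0411). The shares of all genes called higher and lower were 24.5% and 5.65% in DESeq2 and 54% and 12.4% without RIP EV replicate 2. Without replicate 2 *Eif4g3*, *Eif4g2*, *Eif4b*, *Eif4h*, and *Eif4ebp1* were also called higher, and without replicate 1 *Eif4g3* was called higher and *Eif4e* lower (35.9% and 11.8% of all genes). *Eif4g2* had a difference of 0.99 (adjusted p = 0.172) and *Eif4g3* of 4.53 (adjusted p = 0.212), the latter with 0 tags in RIP EV replicate 1.

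The 2 kinds of input were compared to ask whether the members' own levels differed with re-expressed eIF4A2. Tags of *Eif4a2* itself lay between 53.8 and 94.2 CPM in input EV and between 69.1 and 86.8 CPM in input eIF4A2FL. Its log2 fold change was 0.11 (± 0.534 SE), so its tags did not show the knockout or the re-expression. In such bulk libraries fewer cells of a type and less RNA per cell cannot be told apart. No member passed edgeR's test, and neither did any of the 10754 genes (0% in each direction). At an unadjusted p under 0.05, 0.697% of all genes were higher and 0.549% lower, with no member among them, and DESeq2 on 8 libraries called 0.102% and 0.0186%, again with no member. The largest estimates were 0.81 for *Pdcd4* (± 0.635 SE), 0.72 for *Eif4b* (± 0.667 SE), and 0.45 for *Eif4g1* (± 0.495 SE), each with an adjusted p of 1.00. Both eIF4A2FL inputs lay above both EV inputs for *Pdcd4*, *Eif4e2*, and *Eif4b*, and below them for *Eif4g2*, against 19.8% and 17.3% of all genes. With TMM-scaled totals *Eif4e* and not *Eif4g2* was below (19.9% and 18.1%). With standard errors of 0.286 to 1.41 on the log2 scale, these inputs could not show small differences in the members.

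For each member the most similar gene was found as a description, by Pearson's r of log2 CPM over the 8 libraries, which share the gap between RIP EV replicates. *Eif4g1* was most like *Afdn* (r = 0.984), *Eif4g3* like *Trip12* (r = 0.997), *Eif4g2* like *Gm5575* (r = 0.984), and *Eif4e* like *Gm24616* (r = 0.992). *Eif4e2* was most like *Lrrc31* (r = 0.987), *Eif4b* like *Supt3* (r = 0.988), *Eif4h* like *Pqlc2* (r = 0.986), *Pdcd4* like *Snapc3* (r = 0.973), *Eif4ebp1* like *Abr* (r = 0.995), and *Eif4ebp2* like *Npm1* (r = 0.975). Tested genes with r above 0.9 numbered 1244 for *Eif4ebp1*, 1110 for *Eif4h*, 887 for *Eif4b*, 690 for *Eif4e2*, and 534 for *Eif4g3*. For the other members they ran from 16 (*Pdcd4*) to 300 (*Eif4g2*), so a high r was not particular to the genes named. Among the members themselves *Eif4e2* and *Eif4b* were most alike (r = 0.949), whereas *Eif4ebp2* reached at most r = 0.234, with *Eif4e*.

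Around the 10 members, a list of 41 further genes of cap-dependent initiation was counted, of which 39 were tested. It holds the eIF4A helicases and other cap-binding homologs, other eIF4E partners, the kinases and ubiquitin ligase that act on the members, the poly(A)-binding side, other initiation helicases, and the eIF3 subunits. Against RIP EV 7 of 39 rose and 1 fell, where 24.8% of all genes were called higher and 5.46% lower, so the list had no larger share of calls than all genes, with a list median of −0.25 against 0.64 for all genes. The 4 largest were *Mknk1*, an eIF4E kinase (log2 fold change 9.33), *Mtor*, the kinase of the 4E-BPs (9.22), *Btrc*, the ubiquitin ligase subunit that marks PDCD4 (8.40), and *Eif4e3*, a cap-binding homolog (7.11), with adjusted p-values from edgeR of 0.00662, 0.00662, 0.00662, and 0.0412.

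These 4 had 0 or 1 tags in RIP EV. Among the 10754 tested genes they ranked 455 (*Mknk1*), 505 (*Mtor*), 941 (*Btrc*), and 1591 (*Eif4e3*) against RIP EV, so values of this size were not particular to them. RIP eIF4A2FL was at least 26.8-fold higher for *Mknk1*, at least 14.1-fold for *Btrc*, and at least 5.51-fold for *Eif4e3*, against a floor of 3 counts over both RIP EV libraries. *Mtor* had 3001 tags against 1. The other calls were *Dhx29*, *Pabpc1*, and *Rps6ka1* (higher) and *Paip2*, an inhibitor of the poly(A)-binding protein (lower).

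Against input, 0 of 39 passed in edgeR's fit of 8 libraries, with 1 higher and 3 lower before adjustment, and a median of 0.16 against 0.02 for all genes. DESeq2 on 8 libraries called 2 higher and 1 lower. In RIP EV against input EV 3 of 39 rose and 8 fell, near the 4.5% and 26.3% of all genes called, with a median of 0.06 against −0.64 for all genes. The 4 largest were *Btrc* (−8.13), *Mknk1* (−7.97), *Eif4e3* (−7.90), and *Mtor* (−7.80), again at 0 or 1 RIP EV tags, with adjusted p-values from edgeR of 0.00805, 0.00820, 0.0246, and 0.00805. The 3 that rose were *Gigyf1* and *Gigyf2*, partners of 4EHP, and *Eif3a*. In the inputs 0 of 39 were called, with 0 at an unadjusted p under 0.05 as well.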

How the data were processed

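QuantSeq 3′ mRNA libraries of 4 inputs and 4 anti-Flag immunoprecipitates were analyzed. The deposited values are raw counts per gene, which the authors made by trimming reads, mapping them to mm10 with STAR (version 2.5.3a), and counting with HTSeq-count (version 0.11.2). For the annotation release and the strandedness of counting, the status is "not given in the sources used here". Names and positions came from GENCODE (GRCm38), which matched 52403 of 52550 identifiers. The 5 summary lines stayed out of totals and tests, and genes held 19.9% to 68.2% of each library's reads. Gene totals ranged from 2044853 to 11206420, so that 1 count was 0.0892 to 0.489 CPM.

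Counts of genes with CPM ≥ 1 in all 4 inputs were fitted with edgeR (version 4.0.16, R version 4.3.3), TMM scaling, and quasi-likelihood tests over all 8 libraries. P-values were adjusted by Benjamini-Hochberg over 10754 genes, with a threshold of 0.05. The SE given with edgeR was derived as the absolute log2 fold change divided by the square root of the test's F statistic. Alternatives used DESeq2 (version 1.42.0), limma voom (version 3.58.1), 4-library fits, other scaling and filters, a replicate block, and leaving out each library. The scripts were tested on simulated data. Fold changes of the tag counts are on the log2 scale, intervals cover counting error only, and a floor of 3 counts was used for counts of 0. The 2 replicates of each group were not duplicates of 1 library. Likeness used log2 CPM with a prior count of 2. All 10 members are described. Of the pathway list, genes past the threshold are named, the 4 largest with values where over 5 passed. The members and lists were chosen with earlier results of these data known.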

Additional observations from a re-analysis of the deposited data

Results flagged for a closer look

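For 3 genes of the pathway list, edgeR's interaction test on all 8 libraries found a higher RIP to input ratio in eIF4A2FL than in EV cells, against 19.2% of all genes called higher. The log2 differences were 8.95 for *Mtor*, 8.74 for *Btrc*, and 8.52 for *Mknk1*, each with an adjusted p of 0.0176. They ranked 620, 722, and 813 of the 10754 tested genes. RIP eIF4A2FL against its own input gave 1.15, 0.60, and 0.56 (edgeR adjusted p = 0.636, 0.894, and 0.993). RIP EV against input EV gave −7.80, −8.13, and −7.97, so most of each difference lay in the EV cells. *Btrc* and *Mknk1* had 0 tags and *Mtor* 1 tag over both RIP EV libraries, so the fitted sizes depend on the prior count. For *Mtor* the pooled ratio of RIP eIF4A2FL to RIP EV was 764, with an exact 95% counting interval of 137 to 30170. None of the 3 passed without input EV replicate 1, without either input eIF4A2FL library, or without either RIP eIF4A2FL library, nor under limma voom, and in each of these fits 0% of all genes passed in either direction. All 3 passed in DESeq2, where 24.5% of all genes were called higher.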

How the results depend on the processing

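Against RIP EV (0 members called higher and 1 lower in the reported fit), library size alone gave 2 higher and 0 lower, DESeq2 on 8 libraries 3 higher, DESeq2 on 4 libraries 2 and 0, edgeR on 4 libraries 0 lower, limma voom 0 lower, filterByExpr 0 lower, and no filter 3 and 0. Against input (0 and 0), DESeq2 on 8 libraries gave 1 higher and 1 lower, DESeq2 on 4 libraries 2 and 2, edgeR on 4 libraries 2 and 1, limma voom 2 and 2, and no filter 1 higher. For RIP EV against input EV (0 and 1), DESeq2 on 8 libraries gave 1 higher, and DESeq2 on 4 libraries, edgeR on 4 libraries, and limma voom gave 0 lower. For the difference between cell lines (0 and 0), no filter gave 1 higher and DESeq2 on 8 libraries 1 lower. With TMM-scaled totals, 2 members of RIP eIF4A2FL lay below RIP EV and 4 below input, and 2 of RIP EV below input EV, without overlap. In the fits that left out no single library, 0% to 30.4% of all genes were called higher and 0% to 10.5% lower against RIP EV. The shares were 0% to 9.27% and 0.0186% to 10.2% against input. For RIP EV against input EV they were 0% to 10% and 0% to 32%, and for the difference 0% to 24.5% and 0% to 5.65%.

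For the pathway list against RIP EV (7 and 1), library size alone gave 0 lower, DESeq2 on 8 libraries 5 lower, DESeq2 on 4 libraries 4 higher and 3 lower, edgeR on 4 libraries 0 and 0, limma voom 0 and 0, and no filter 2 lower. Against input (0 and 0), DESeq2 on 8 libraries gave 2 and 1, DESeq2 on 4 libraries 4 and 4, edgeR on 4 libraries 4 and 2, limma voom 5 and 4, and no filter 1 lower. For RIP EV against input EV (3 and 8), DESeq2 on 8 libraries gave 7 higher, DESeq2 on 4 libraries 1 lower, edgeR on 4 libraries 0 and 0, and limma voom 0 and 0. For the difference (3 and 0), library size alone gave 6 higher, DESeq2 on 8 libraries 7 and 1, and limma voom 0 higher. The shares of all genes given above for these fits apply here as well.

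Leaving out 1 library at a time gave 0 to 7 members higher and 0 to 2 lower against RIP EV, 0 to 2 and 0 to 1 against input, 0 to 1 and 0 to 7 for RIP EV against input EV, and 0 to 5 and 0 to 1 for the difference, with the highest counts of higher calls against RIP EV, and of lower calls in RIP EV, without RIP EV replicate 2. For the pathway list the ranges were 4 to 13 and 0 to 9, 0 to 4 and 0 to 2, 0 to 9 and 3 to 17, and 0 to 13 and 0 to 5. Without RIP EV replicate 2, 58.1% of all genes were called higher against RIP EV and 60.3% lower in RIP EV against input EV. For the difference 54% were called higher, and against input 8.07%. High counts in these fits were therefore not particular to the members or the list. Each fit left 1 library in a group, so its calls omit the spread within that group.

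Estimates near 0 changed sign. Against RIP EV *Pdcd4* was 0.17 with library size alone and 0.068 with no filter. Against input *Eif4g2* was 0.18 with library size alone, and *Eif4h* was −0.027 in DESeq2 on 4 libraries and −0.0052 in limma voom. With 1 library left out the log2 values ran, against RIP EV, from −1.497 to 0.83 for *Eif4e*, −0.28 to 0.93 for *Eif4e2*, −0.39 to 1.60 for *Eif4h*, and −0.12 to 0.030 for *Pdcd4*, and, against input, from −0.34 to 0.13 for *Eif4g2* and −0.27 to 0.30 for *Eif4h*. For RIP EV against input EV they ran from −2.13 to 0.15 for *Eif4e*, −1.14 to 0.021 for *Eif4e2*, and −1.64 to 0.29 for *Eif4h*. Between inputs they ran from −0.062 to 1.04 for *Eif4g1*, −0.52 to 2.30 for *Eif4g3*, −0.35 to 0.12 for *Eif4h*, −0.19 to 0.53 for *Eif4ebp1*, and −0.013 to 0.25 for *Eif4ebp2*. For the difference they ran from −1.41 to 0.91 for *Eif4e*, −0.44 to 0.77 for *Eif4e2*, −0.62 to 1.72 for *Eif4b*, and −0.29 to 1.68 for *Eif4h*. Causes of these changes were not tested.

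Same-numbered libraries of different groups had correlations of −0.0695 to 0.118 in their deviations, so the numbers were not taken to pair the libraries. A replicate block gave 0 members higher and 0 lower against RIP EV (*Eif4ebp2* −0.96, adjusted p = 0.0793), 0 and 0 against input, 0 and 1 for RIP EV against input EV, 0 and 0 between inputs, and 0 and 0 for the difference. For the pathway list it gave 6 and 1, 0 and 0, 2 and 6, 0 and 0, and 3 and 0. With this block 22.7% of all genes were called higher and 3.96% lower against RIP EV, and 0% and 0.0186% against input. The shares were 2.96% and 24.1% for RIP EV against input EV, 0% and 0% between inputs, and 14.9% and 1.25% for the difference. With 2 libraries per group, and 2044853 and 3345151 gene reads in RIP EV, the background of *Eif4g3* rested on 0 and 33 tags. A lone library of a group was assumed to vary like the other groups.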
